A study of Danio rerio with 12 samples.

Results

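Nodal signalling patterns the early zebrafish embryo, where it induces mesoderm and endoderm at the margin of the blastoderm. The genes described here are its core components by name: the ligand genes gdf3, ndr1 and ndr2, the antagonist genes lft1 and lft2, the co-receptor gene tdgf1, the type I receptor gene acvr1ba, the effector genes smad2 and smad3a, and the target gene gsc. These 10 symbols were matched to 11 of the 31462 gene identifiers in the tables, since 2 identifiers carried the symbol ACVR1B and the copy was not given for either. Those are named ACVR1B-18968 (ENSDARG00000018968) and ACVR1B-52142 (ENSDARG00000052142), and smad3a was taken as the SMAD3 identifier (ENSDARG00000036096) that is not smad3b. The other identifiers were ENSDARG00000037995 for gdf3, ENSDARG00000057096 for ndr1, ENSDARG00000101279 for ndr2, ENSDARG00000019920 for lft1, ENSDARG00000044059 for lft2, ENSDARG00000035095 for tdgf1, ENSDARG00000006389 for smad2 and ENSDARG00000059073 for gsc.

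Poly-A RNA was sequenced from pools of 30 to 50 AB strain embryos, either wildtype (wt) or lacking both maternal and zygotic smchd1 (MZ). The MZ embryos carried lof1, 1 out-of-frame CRISPR/Cas9 allele in the region encoding the GHKL ATPase domain, so that the genotype is represented by a single mutant line. Embryos were collected between 4 and 8 cells (early), when the RNA is maternal, and at the sphere stage, after zygotic transcription has started. Each genotype and stage had 3 libraries, 12 in all, and nothing says that these came from separate clutches, so that the spread behind the p-values is that among these samples and may be technical. Embryos lacking maternal smchd1 have other mothers than wt embryos, and the sample labels run in separate blocks by genotype. In the differences between genotypes, smchd1 loss thus cannot be told apart from parents, stock or whatever those blocks stand for.

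In fish, gdf3 (also known as vg1) encodes a TGF-beta ligand that the mother deposits as RNA in the egg, and it acts as a dimer with the Nodal proteins encoded by ndr1 (squint) and ndr2 (cyclops). The ligands bind Activin receptors together with the EGF-CFC co-receptor encoded by tdgf1 (one-eyed pinhead), and the signal is carried by Smad2 and Smad3. Lefty proteins, encoded by lft1 and lft2, antagonise the ligands and are themselves induced by the signal. The homeobox gene gsc, a marker of the dorsal organizer, is a classical target.

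Depth ranged from 7829742 expected counts in MZ sphere replicate 1 to 23681822, and that shallowest library also had the largest share of the ribosomal RNA gene that was removed (3.98%, against 0.00632% in the lowest library). Every MZ sphere library was shallower than every wt sphere library (7829742 to 16625111 against 16813724 to 17266229 expected counts). The share of that gene was also higher in each, at 0.309% to 3.98% against 0.00632% to 0.0221%. At sphere both thus went with genotype, and their part in the sphere and interaction results was not tested. As a check of the genotype, smchd1 RNA averaged 235 ± 24.04 CPM in wt libraries against 6.42 ± 1.23 CPM in MZ libraries early (mean ± SD, n = 3 each), and 226 ± 56.8 against 3.65 ± 0.34 CPM at sphere. CPM are counts relative to library size after TMM scaling over all 12 libraries. Summed over 20 maternal egg markers the level was 8551 CPM in the middle wt and 8532 CPM in the middle MZ library of the 4- to 8-cell stage. Summed over 29 zygotic blastula markers, levels were at most 107 CPM in any 4- to 8-cell library and 2655 to 5060 CPM in the sphere libraries. Zygotic markers were thus scarce in the libraries labelled 4- to 8-cell and abundant in those labelled sphere. Markers of blood had means of 1.03 to 2.66 CPM over the groups.

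The clearest difference lay in gdf3. Its RNA stood at 328, 361 and 285 CPM in the 3 wt libraries of the 4- to 8-cell stage and at 460.1, 404 and 466 CPM in the MZ libraries. At the sphere stage it stood at 514, 484 and 545 CPM in wt and at 264, 261 and 242 CPM in MZ libraries. Every MZ library lay above every wt library at the early stage and below every wt library at the later one, so that the order of the genotypes turned around.

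At sphere gdf3 RNA was about halved in MZ embryos, with a log2 fold change of -1.02 (SE 0.09, adjusted p = 0.00350 by the quasi-likelihood test of edgeR, which is meant wherever edgeR is named). The wt mean was 514 ± 30.6 CPM and the MZ mean 256 ± 11.97 CPM (n = 3 each). Of 16314 genes tested at this stage, 7.78% were called at an adjusted p under 0.05, and gdf3 ranked 26 by p-value. Without MZ sphere replicate 1, the shallow library with the most ribosomal RNA, the value was -1.05 (adjusted p = 0.00995, edgeR). In the other MZ sphere libraries the ribosomal RNA gene still made up 0.309% and 0.398%, against at most 0.0221% in wt sphere libraries. Leaving out replicate 1 thus does not remove that difference between the genotypes. Beside gdf3, the summed level of the maternal egg markers was 5827 to 6661 CPM in wt and 5102 to 6158 CPM in MZ sphere libraries, ranges that overlapped. Its 20 members went both ways, 12 with positive and 8 with negative log2 fold changes. Of the 20, 9 had an unadjusted p under 0.05 (28.7% of all genes), and edgeR called 1 lower, ddx4 (-0.40). DESeq2 called 4 higher and 3 lower (2725 of the 16314 genes in either direction). Between stages edgeR called 3 of the 20 higher and 13 lower in wt (24.7% and 23.6% of all genes). In MZ embryos it called 0 higher and 11 lower (20.0% and 19.6%). In the interaction edgeR called 0, and 8 had an unadjusted p under 0.05 (20.8% of all genes). In RNA from whole embryos, fewer cells that hold a transcript and less of it per cell cannot be told apart.

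At the 4- to 8-cell stage gdf3 had a log2 fold change of 0.47 (SE 0.10) and missed the threshold (adjusted p = 0.0620, edgeR), with means of 325 ± 38.1 and 443 ± 34.0 CPM. DESeq2 called it (adjusted p = 8.62e-04), as did edgeR when all 12 libraries shared 1 estimate of the spread (0.0256). The remaining 14 of 16 alternatives did not. At this stage 3.02% of 15937 genes were called. Summed CPM of 14 ovarian follicle markers moved the other way, with 292 to 476 CPM in wt and 207 to 270 CPM in MZ libraries. Of the 14, 4 reached the count minimum, 1 with a positive and 3 with negative log2 fold changes. An unadjusted p under 0.05 was found for 2 (22.0% of all genes), and edgeR called 0. DESeq2 called 1 lower (1927 of the 15937 genes in either direction). The part of these markers in the gdf3 levels was not tested.

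Between the stages gdf3 rose in wt embryos (log2 fold change 0.72, SE 0.10, adjusted p = 8.47e-05) and fell in MZ embryos (-0.76, SE 0.10, adjusted p = 1.08e-04, edgeR for both). These are changes in the poly-A RNA that was sequenced, and the total amount of gdf3 RNA was not measured. The change in MZ minus that in wt embryos was -1.48 (SE 0.14, adjusted p = 0.00241, edgeR interaction). Only 1.97% of 16595 genes passed this interaction test, and gdf3 had the lowest p-value of all of them. The interaction was called under each of the 21 alternative settings tried, with values from -1.56 to -1.30, and the sphere difference under each of 16, from -1.06 to -0.86. The rise in wt was not called on the TPM scale (0.12 on log2(TPM + 1), adjusted p = 0.385, limma), on which the median of all genes moved by -0.48, leaving 0.60 relative to that median.

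**Figure D1:**
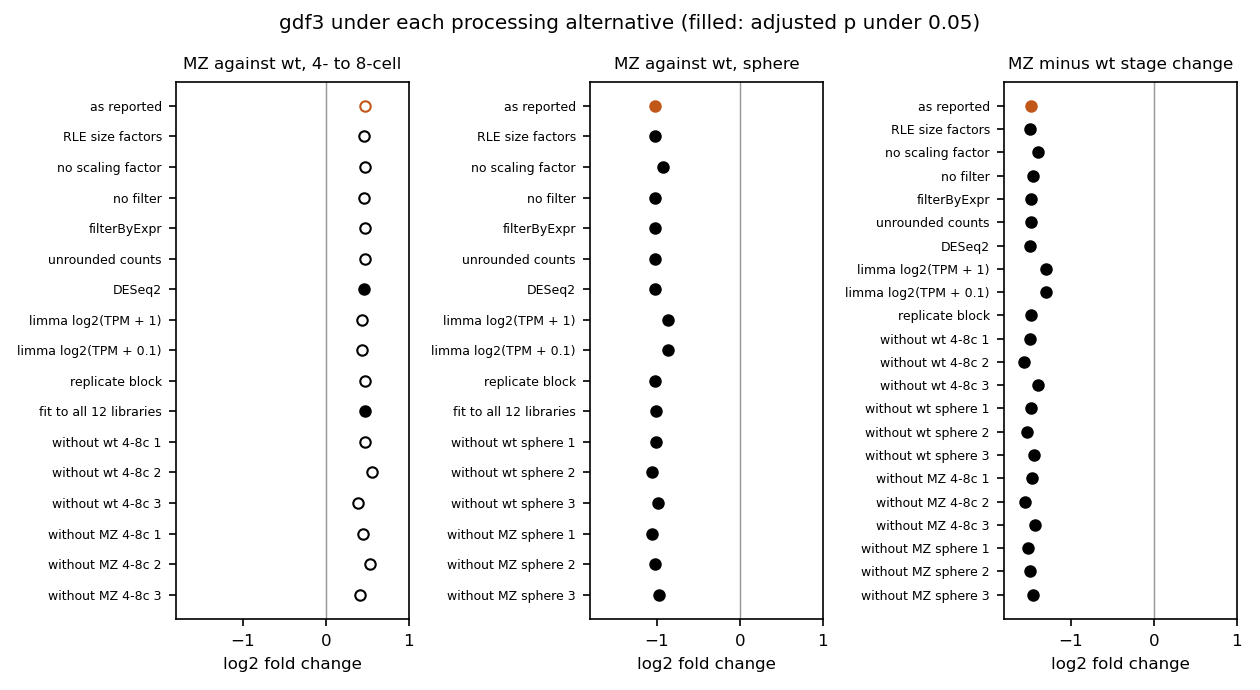
Log2 fold change of gdf3 (x axis) under each processing setting (rows) for MZ against wt at each stage and for the change between stages in MZ minus that in wt, with the reported value in orange and filled points for an adjusted p under 0.05. The sphere values lie between -1.06 and -0.86 and the interaction values between -1.56 and -1.30, all filled, while at the 4- to 8-cell stage the value was filled for DESeq2 and for the fit to all 12 libraries.

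In TPM, the deposited unit that corrects for transcript length and so can be compared between genes, gdf3 was the most abundant of the 11 transcripts in every group, with means of 485 TPM in wt and 656 TPM in MZ embryos early and 528 and 289 TPM at sphere. Among all genes it ranked between 192 and 300 in 9 libraries, and between 435 and 470 in the 3 MZ sphere libraries. The average length that RSEM assigned to gdf3 was 1254 to 1256 bases in all libraries. The expected counts of the 11 identifiers were whole numbers within 0.005 in all 132 values.

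The Nodal ligand transcripts were scarce early and rose by sphere. ndr1 stood at 4.20, 4.16 and 4.27 CPM in wt and at 2.98, 1.42 and 1.71 CPM in MZ libraries of the 4- to 8-cell stage, so that the genotypes did not overlap. Its sphere levels were 40.0, 42.0 and 33.2 CPM in wt and 31.9, 26.4 and 22.0 CPM in MZ libraries, again with every MZ library below the wt libraries. Neither difference passed the test. The log2 fold changes were -1.03 (SE 0.34, adjusted p = 0.146) early and -0.53 (SE 0.19, adjusted p = 0.114, edgeR for both) at sphere.

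ndr2 was close to absent early, at 26 counts over the wt and 36 over the MZ libraries, or 0.40 ± 0.045 and 0.66 ± 0.068 CPM (n = 3 each). It then reached 26.2, 25.6 and 16.6 CPM in wt and 14.2, 12.2 and 9.16 CPM in MZ sphere libraries. The highest MZ library lay below the lowest wt library. The sphere difference was -0.96 on the log2 scale (SE 0.26) and missed the threshold (adjusted p = 0.0655, edgeR), whereas DESeq2 called it (0.00857), as did edgeR in the fit to all 12 libraries (0.0244) and without wt sphere replicate 3 (0.0424). Its interaction was -1.66 (SE 0.39, adjusted p = 0.0556, edgeR), and was called by DESeq2 (0.0281), without wt sphere replicate 3 (0.0236) and without MZ sphere replicate 1 (0.0400). Most alternatives did not call ndr2, namely 12 of 16 for the sphere difference and 17 of 21 for the interaction.

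In the RefSeq annotation of GRCz12tu, ndr2 overlaps pald1a and ascc1, so its counts may hold reads of theirs. All ndr2 expected counts were whole numbers within 0.005, so they show no reads shared out in fractions. Of pald1a no level is given, since 2 identifiers carry the symbol PALD1 and the copy was not given for either. The ASCC1 transcript was at 35.6 ± 6.23 CPM in wt against 12.9 ± 5.96 CPM in MZ libraries early and at 27.1 ± 0.141 CPM in wt against 25.5 ± 10.8 CPM in MZ sphere libraries, and its part in the ndr2 counts was not tested.

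From the early stage to sphere ndr1 rose by 3.25 (SE 0.26) in wt and 3.75 (SE 0.27) in MZ embryos on the log2 scale, and ndr2 by 5.86 (SE 0.31) and 4.20 (SE 0.29). All 4 rises passed the test, with adjusted p-values of 1.93e-06 and 1.35e-06 for ndr1 and of 8.06e-08 and 8.43e-07 for ndr2 (edgeR). In TPM, ndr1 made up 90.8 ± 1.02% of the summed ndr1 and ndr2 in wt and 73.4 ± 5.52% in MZ embryos early, and 61.8 ± 3.34% and 68.2 ± 1.20% at sphere (n = 3 each). As a description, the MZ share was the lower one early and the higher one at sphere, with no overlap of libraries at either stage.

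The ratio of gdf3 transcripts to ndr1 and ndr2 transcripts shifted with stage. Per unit of summed ndr1 and ndr2 TPM there were 91.6 ± 10.9 units of gdf3 in wt and 225 ± 55.9 in MZ embryos early, against 11.03 ± 2.64 and 8.66 ± 1.31 at sphere (n = 3 each). The early MZ libraries, at 160 to 259, lay above the wt libraries, at 80.3 to 102. These early ratios rest on low summed ndr1 and ndr2 levels, 5.03 to 5.46 TPM in wt and 2.4 to 4.01 TPM in MZ libraries. The sphere ranges, 7.35 to 9.97 in MZ and 9.14 to 14.1 in wt, overlapped.

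**Figure D2:**
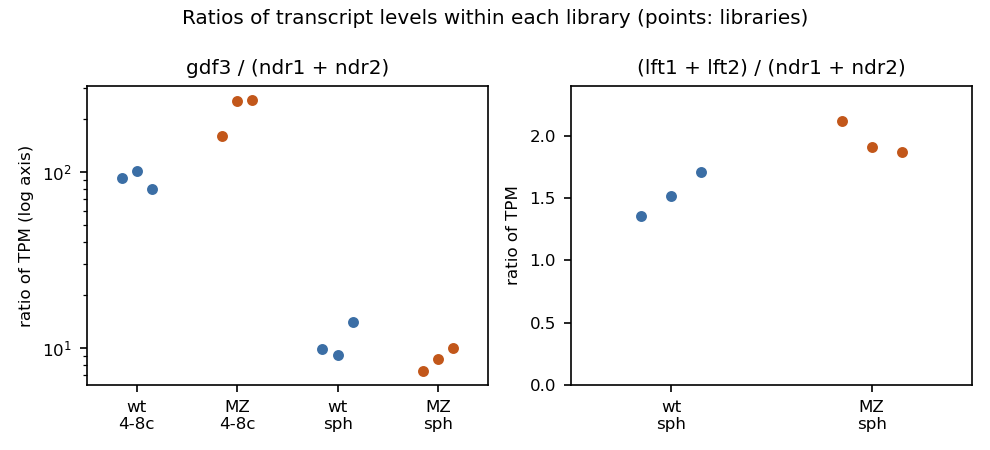
Ratios of TPM within each library (points, blue for wt and orange for MZ): gdf3 over summed ndr1 and ndr2 by genotype and stage on a log axis (left), and summed lft1 and lft2 over summed ndr1 and ndr2 at the sphere stage (right). The gdf3 ratio was 160 to 259 in MZ and 80.3 to 102 in wt libraries early and overlapped at sphere, and the lft ratio was 1.87 to 2.12 in MZ and 1.35 to 1.71 in wt libraries.

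The Lefty antagonist transcripts appeared with zygotic transcription and were too rare early to be tested. lft2 had 1 count over the wt and 3 over the MZ libraries of the 4- to 8-cell stage, and 2228 and 1154 at sphere. The ratios of sphere to early levels were 2977 in wt (95% counting interval 534 to 1.18e+05) and 574 in MZ embryos (196 to 2786), and these intervals cover counting error only. lft1 had 20 early counts in wt, of which 15 were in replicate 1, and 11 in MZ libraries. It rose by 6.74 (SE 0.50) in wt and 7.27 (SE 0.53) in MZ embryos on the log2 scale, with adjusted p-values of 1.15e-06 and 1.46e-06 (edgeR).

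At sphere lft1 was at 32.3, 37.4 and 25.7 CPM in wt and 39.7, 30.8 and 24.3 CPM in MZ libraries, which overlapped throughout. Its log2 fold change was -0.02 (SE 0.23, adjusted p = 0.964, edgeR) and turned positive with no scaling factor and on the TPM scale. lft2 was at 43.6, 49.5 and 45.8 CPM in wt and 42.7, 31.6 and 24.9 CPM in MZ libraries. The highest MZ library sat just under the lowest wt library, and the log2 fold change of -0.50 (SE 0.21) did not pass (adjusted p = 0.160, edgeR), although it did without MZ sphere replicate 1 (-0.73, 0.04996). Per unit of ndr TPM the lft transcripts summed to 1.53 ± 0.18 in wt and 1.96 ± 0.13 in MZ embryos (n = 3 each). The wt and MZ libraries were apart in this ratio, which is given as a description with no test. Summed lft TPM itself was not higher on average in MZ embryos, at 67.0 against 73.8 in wt, with overlapping libraries. The summed ndr TPM below it was 33.9 in MZ and 48.7 in wt embryos, without overlap.

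Receptor and co-receptor transcripts were present early and at sphere in both genotypes. tdgf1 was at 53.6, 63.3 and 64.8 CPM in wt and 93.3, 73.6 and 69.0 CPM in MZ libraries early, with every MZ library higher, and at 247, 286 and 213 CPM and 263, 313 and 243 CPM at sphere, where they overlapped. The log2 fold change was 0.39 (SE 0.13, adjusted p = 0.146) early and 0.12 (SE 0.14, adjusted p = 0.599, edgeR for both) at sphere. It rose between stages by 2.10 (SE 0.15) in wt and 1.84 (SE 0.15) in MZ embryos, with adjusted p-values of 7.94e-07 and 3.00e-06 (edgeR). In the same RefSeq annotation 2 protein-coding genes overlap tdgf1, so its counts may hold reads of theirs. There 1 long non-coding RNA gene each overlaps lft2, acvr1ba and gsc.

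ACVR1B-18968 was the more abundant receptor identifier, at 116 TPM in wt and 117 TPM in MZ embryos early and 99.9 and 108 TPM at sphere. Its CPM were 246 to 272 in wt and 251 to 271 in MZ libraries early and 312 to 331 and 302 to 331 at sphere, and the genotypes differed by 0.03 (SE 0.06) and -0.04 (SE 0.09) on the log2 scale. Neither passed (adjusted p = 0.801 and 0.795, edgeR). Its rise between stages in CPM, 0.38 (SE 0.07) in wt and 0.31 (SE 0.07) in MZ embryos, was called (adjusted p = 6.84e-04 and 0.00349, edgeR) but turned to -0.22 and -0.11 on the TPM scale.

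ACVR1B-52142 was at 60.6, 56.6 and 67.6 CPM in wt and 62.9, 74.5 and 72.6 CPM in MZ libraries early. At sphere it was at 97.7, 84.4 and 96.3 CPM in wt and 71.4, 75.9 and 68.6 CPM in MZ libraries, all of them below wt. The difference of -0.38 (SE 0.11) missed the threshold (adjusted p = 0.0728, edgeR), while DESeq2 (0.0254) and the fit to all 12 libraries (0.0376) called it. It rose between stages in wt (0.65, SE 0.11, adjusted p = 3.10e-04) and not detectably in MZ embryos (0.08, SE 0.11, adjusted p = 0.593, edgeR for both). The test of that difference gave -0.57 (SE 0.15, adjusted p = 0.0694, edgeR), and DESeq2 called it (0.00902). Most alternatives called neither, namely 14 of 16 for the sphere difference and 20 of 21 for this test. On the TPM scale the wt rise was not called (0.06, adjusted p = 0.718, limma) and the MZ value turned to -0.34 and was called as a fall (adjusted p = 0.0446, limma).

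smad2 exceeded smad3a in every library, with 152 against 2.84 TPM in wt and 149 against 2.17 TPM in MZ embryos early, and 79.0 against 0.78 TPM and 100.2 against 0.76 TPM at sphere. In CPM smad2 was at 202 to 241 in wt and 196 to 271 in MZ libraries early, and at 153 to 193 and 190 to 208 at sphere. The genotype differences of 0.04 (SE 0.13) and 0.17 (SE 0.11) did not pass (adjusted p = 0.890 and 0.356, edgeR), and the early one was negative on the TPM scale. The change of smad2 between stages was -0.28 (SE 0.13) in wt and -0.15 (SE 0.13) in MZ embryos, neither called (adjusted p = 0.0806 and 0.362, edgeR). On the TPM scale, where all genes moved down at the median, both were called, at -0.94 and -0.55, or -0.45 and -0.20 relative to that median.

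smad3a fell from 10.5 ± 2.48 to 4.12 ± 1.13 CPM between stages in wt and from 8.15 ± 2.37 to 3.67 ± 0.127 CPM in MZ embryos (n = 3 each). Its log2 changes were -1.29 (SE 0.30) and -1.11 (SE 0.30), with adjusted p-values of 0.00343 and 0.0117 (edgeR). The genotypes differed by -0.35 (SE 0.29) early and -0.17 (SE 0.31) at sphere, with overlapping libraries and adjusted p-values of 0.539 and 0.741 (edgeR). Among the 10 symbols looked up in GRCz12tu it was the 1 on the chromosome of smchd1.

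The homeobox target gsc did not pass the test between genotypes at either stage. Its sphere levels were 22.6, 33.9 and 24.2 CPM in wt and 49.1, 49.7 and 29.2 CPM in MZ libraries. In CPM, MZ replicate 3 thus lay within the wt range. In TPM every MZ sphere library, at 34.5 to 53.4, lay above every wt library, at 22.0 to 32.6. On log2(TPM + 1) the difference was 0.77, or 0.64 relative to the median of all genes, and was not called (adjusted p = 0.0785, limma). The log2 fold change of 0.66 (SE 0.25) did not pass (adjusted p = 0.136, edgeR). Early levels were 1.62 ± 0.45 CPM in wt against 1.25 ± 0.70 CPM in MZ embryos (n = 3 each), a difference of -0.35 (SE 0.48, adjusted p = 0.724, edgeR). gsc rose between stages by 4.10 (SE 0.38) in wt and 5.10 (SE 0.40) in MZ embryos, with adjusted p-values of 5.35e-06 and 2.58e-06, and an interaction of 1.00 (SE 0.51, adjusted p = 0.288, edgeR for all).

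**Figure D3:**
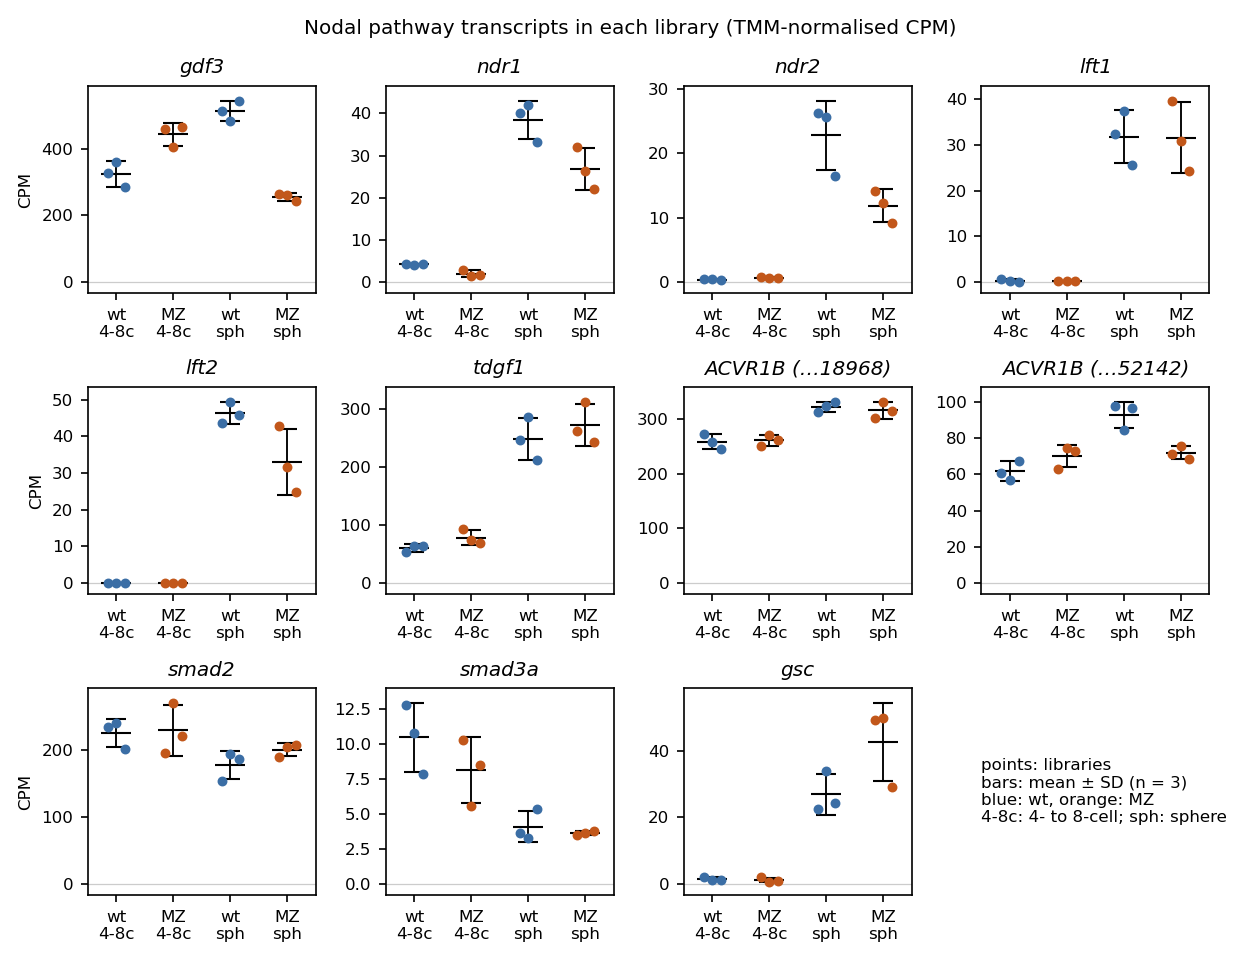
TMM-normalised CPM (y axis) of the 11 transcripts in each library (points, blue for wt and orange for MZ) with the mean and SD of 3 libraries per genotype and stage. For gdf3 the MZ libraries lie above wt early (404 to 466 against 285 to 361 CPM) and below wt at sphere (242 to 264 against 484 to 545 CPM), while ndr1, ndr2, lft1, lft2 and gsc lie far below their sphere levels early in both genotypes.

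Counted over the 11 identifiers, 9 were tested at the 4- to 8-cell stage and edgeR called 0, although DESeq2 called gdf3 and 3 reached an unadjusted p under 0.05 by edgeR. Over all genes the shares were 3.02% called and 22.0% at an unadjusted p under 0.05. The wt and MZ libraries were apart for 4 of the 9 (gdf3, ndr1, ndr2 and tdgf1), as for 28.9% of all genes tested. At sphere 11 were tested, 1 was called, gdf3 (7.78% of all genes), and 6 had an unadjusted p under 0.05 (28.7% of all genes). In CPM the genotypes did not overlap for 5 of the 11 (gdf3, ndr1, ndr2, lft2 and ACVR1B-52142), as for 34.5% of all genes. This set depends on the scale. In TPM lft2 and ACVR1B-52142 overlapped, while every MZ sphere library lay above every wt sphere library for tdgf1, smad2 and gsc. The share of all genes apart in TPM was not computed. On log2(TPM + 1) the median of all genes moved by 0.13 at sphere. The differences of tdgf1, smad2 and gsc on that scale were 0.28, 0.34 and 0.77. They were not called (adjusted p = 0.174, 0.121 and 0.0785, limma) and were 0.15, 0.22 and 0.64 relative to that median. The median log2 fold change was 0.04 early and -0.17 at sphere, against 0.003 and -0.003 over all genes.

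Stage changes were more frequent. In wt embryos 9 of the 11 were called higher at sphere and 1 lower (smad3a), against 24.7% and 23.6% of all genes (48.3% in either direction). In MZ embryos 7 were higher and 2 lower (gdf3 and smad3a), against 20.0% and 19.6% (39.5% in either direction). These tallies depend on the scale. On log2(TPM + 1), by limma, 6 were called higher and 2 lower in wt embryos (10.9% and 48.8% of all genes, or 1804 and 8102) and 6 higher and 4 lower in MZ embryos (11.3% and 40.7%, or 1875 and 6761). Of the 11, 1 gene passed the interaction, which is gdf3 (1.97% of all genes), and 3 had an unadjusted p under 0.05 (20.8% of all genes). These comparisons share libraries and are given side by side.

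**Figure D4:**
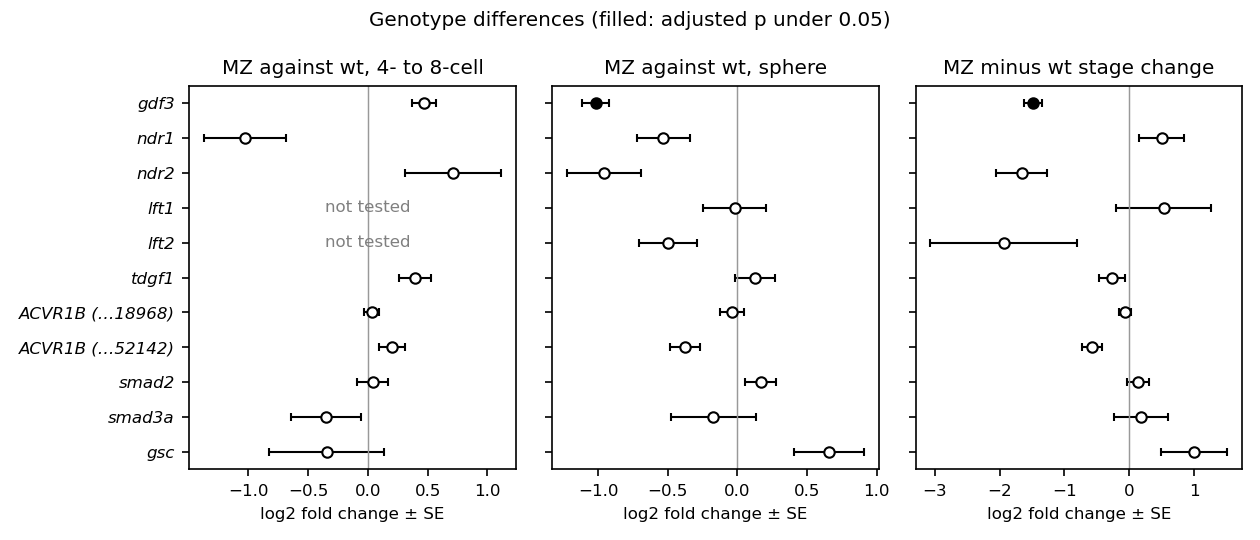
Log2 fold change ± SE (x axis) of the 11 transcripts for MZ against wt at the 4- to 8-cell stage (left), at the sphere stage (middle) and for the stage change in MZ minus that in wt (right), with filled points for an adjusted p under 0.05 (edgeR). Only gdf3 is filled, at -1.02 at sphere and -1.48 for the interaction, and lft1 and lft2 were not tested early.

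Other genes of the pathway were taken from 7 lists of ligands, processing enzymes, receptors, antagonists and inhibitors, Smads and cofactors, targets, and Activin-related factors, with 83 identifiers outside the 11. Of the 49 tested at the 4- to 8-cell stage, 18 had an unadjusted p under 0.05 by edgeR, against 22.0% of all genes. After adjustment 1 of the 49 was called, or 2.04%, near the 3.02% of all genes. It was mixl1, a homeobox gene of mesendoderm, which stood at 3.02 ± 1.02 CPM in wt against 9.65 ± 2.26 CPM in MZ embryos (n = 3 each, log2 fold change 1.69, SE 0.32, adjusted p = 0.0466, edgeR). The call was lost whichever 1 of the 6 libraries was left out (adjusted p up to 0.121, edgeR), and under 9 of 16 alternatives in all. At sphere mixl1 levels were 94.5 ± 33.0 and 89.7 ± 39.8 CPM.

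Of the 68 tested at sphere, 11 had an unadjusted p under 0.05 by edgeR, against 28.7% of all genes. After adjustment 2 of the 68 were called, or 2.94%, below the 7.78% of all genes. admp, a BMP-family ligand of the dorsal organizer, rose from 37.6 ± 9.24 CPM in wt to 83.8 ± 17.6 CPM in MZ embryos (n = 3 each, log2 fold change 1.15, SE 0.22, adjusted p = 0.0258, edgeR). skilb, of the Ski and Sno family of Smad repressors, fell from 16.4 ± 2.64 to 7.72 ± 1.40 CPM (-1.10, SE 0.24, adjusted p = 0.0356, edgeR) and was also the 1 of 67 genes called in the interaction (-2.61, SE 0.59, adjusted p = 0.0492), with 17 wt and 41 MZ counts early. The admp call was lost without wt sphere replicate 1 or 3 or any 1 MZ sphere library (adjusted p up to 0.114, edgeR), and the skilb call without any 1 library but MZ sphere replicate 1 (up to 0.167). The skilb call was lost under 9 of 16 alternatives at sphere and under 16 of 21 in the interaction.

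**Figure D5:**
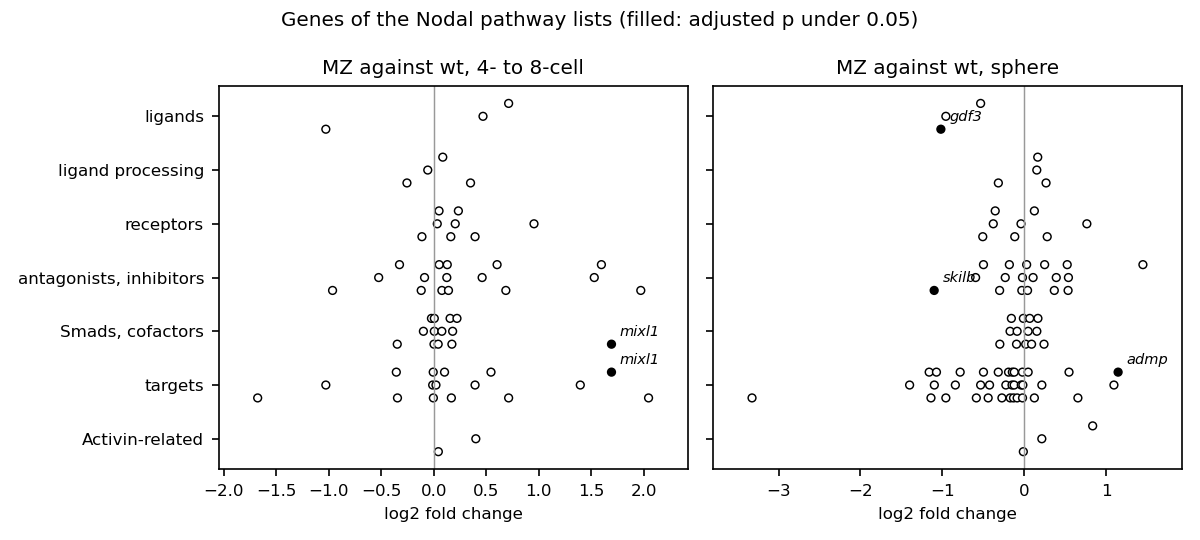
Log2 fold change (x axis) of MZ against wt embryos for every tested gene of the 7 pathway lists (rows), early (left) and at sphere (right), with filled and named points for an adjusted p under 0.05 (edgeR). The called genes are mixl1 early (1.69, a member of 2 lists), and gdf3 (-1.02), skilb (-1.10) and admp (1.15) at sphere.

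Most Nodal target genes were higher at sphere than early. Of 36 tested, 30 were called higher and 1, WNT8A (ENSDARG00000052910), lower in each genotype, against 24.7% and 23.6% of all genes in wt and 20.0% and 19.6% in MZ embryos, with medians of 6.49 in wt and 6.06 in MZ embryos on the log2 scale. Between genotypes at sphere, 29 of the 36 had negative and 7 positive log2 fold changes, with a median of -0.18 against -0.003 over all genes. edgeR called 1, admp (7.78% of all genes), and 8 had an unadjusted p under 0.05 (28.7% of all genes). DESeq2 called 1 higher and 2 lower (2725 of 16314 genes in either direction). This list includes ndr1, ndr2, lft1, lft2, tdgf1 and gsc. Zygotic blastula markers in sum were at 3459 to 5060 CPM in wt and 2655 to 4327 CPM in MZ sphere libraries, with 23 of 29 negative. Of the 29, edgeR called 0 (7.78% of all genes), and 7 had an unadjusted p under 0.05 (28.7% of all genes). DESeq2 called 1 of them higher and 4 lower. The target and blastula marker lists share tbxta, tbx16, chrd, mxtx2, FGF3, fgf8a, aplnrb and both WNT8A identifiers, which are thus counted in each. The part of the blastula markers in the target levels was not tested. Yolk syncytial layer markers summed to 254 to 393 CPM in wt and 178 to 316 CPM in MZ sphere libraries, and enveloping layer markers to 731 to 1041 and 546 to 841 CPM. In these lists edgeR called 0 of 4 and 0 of 7 tested genes (7.78% of all genes). An unadjusted p under 0.05 was found for 1 and 0 (28.7% of all genes), and DESeq2 called 1 lower and 0.

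Counts per list are set beside all genes tested, of which edgeR called 3.02% early and 7.78% at sphere. An unadjusted p under 0.05 was found for 22.0% and 28.7%, and DESeq2 called 1927 and 2725 of 15937 and 16314 genes. The 8 receptor and co-receptor genes include the members tdgf1, ACVR1B-18968 and ACVR1B-52142. Among them edgeR called 0 between genotypes at either stage, with 4 early and 2 at sphere at an unadjusted p under 0.05. DESeq2 called 1 higher early and 1 lower at sphere, which is ACVR1B-52142, described above. The 4 tested processing enzyme genes, convertases that can cleave ligand precursors, also gave 0 calls at either stage, with 2 early and 1 at sphere at an unadjusted p under 0.05 and 0 by DESeq2. Of 13 Smads and cofactors, the members smad2 and smad3a among them, edgeR called 0 at sphere. An unadjusted p under 0.05 was found for 0, and DESeq2 called 0. Their summed level was 4426 to 5261 CPM in wt and 4566 to 5163 CPM in MZ libraries. Early, edgeR and DESeq2 each called 1 of these 13 higher, mixl1 by edgeR. Among the antagonists and inhibitors edgeR called 0 of 16 early, with 7 at an unadjusted p under 0.05 and 2 higher and 1 lower by DESeq2. At sphere edgeR called 1 of 18, skilb, with 6 at an unadjusted p under 0.05 and 2 lower by DESeq2. Those 18 include the members lft1 and lft2. The Activin-related list had 2 tested genes early and 3 at sphere, with 0 calls by edgeR, 1 early and 0 at sphere at an unadjusted p under 0.05, and 1 early and 0 at sphere by DESeq2. The other Nodal gene, spaw, did not reach the count minimum.

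By TPM the order of the transcripts changed with stage. In wt embryos it ran early from gdf3 over smad2, ACVR1B-18968, tdgf1, ACVR1B-52142, ndr1, smad3a, gsc, ndr2 and lft1 to lft2. Neighbours whose libraries overlapped were tdgf1 with ACVR1B-52142, smad3a with gsc, and ndr2 with lft1. At sphere the wt order ran from gdf3 over tdgf1, ACVR1B-18968, smad2, ACVR1B-52142, lft2, ndr1, lft1, gsc and ndr2 to smad3a, with overlaps of smad2 with ACVR1B-52142, of ndr1 with lft1 and of lft1 with gsc. In MZ sphere embryos gsc, at 47.0 TPM, stood above lft2 (35.2 TPM), lft1 (31.8 TPM) and ndr1 (23.1 TPM), and gsc overlapped with lft2, lft2 with lft1, and lft1 with ndr1.

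Across the 12 libraries, the genes most like gdf3 by Pearson correlation of log2(TPM + 1), among 15305 genes with a mean of at least 1 TPM, were GINS4 (0.947), mark1 (0.931), TOP3B (0.919), lifra (0.903) and RHOBTB1 (0.898). All 5 had their lowest group mean in MZ sphere embryos, as gdf3 did, for example 10.3 TPM for GINS4 and 0.947 TPM for lifra against 19.9 and 4.08 TPM in wt sphere embryos. For ndr1 they were NHS (0.990), BAMBI (0.987), ENSDARG00000092395 (0.983), si:dkey-23a13.15 (0.982) and ENSDARG00000105409 (0.982), all with lower means in MZ than in wt embryos early and higher means at sphere than early in both genotypes. ndr1 itself correlated at 0.967 with lft2, 0.962 with lft1, 0.954 with ndr2 and 0.952 with gsc. The 12 libraries fall into 2 stages and 2 genotypes, and these correlations are given as a description. The genes named as most like gdf3 or ndr1 were picked over these same libraries. Their shared group patterns therefore follow from the choice and are no separate result.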

How the data were processed

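The authors sequenced poly-A RNA from both ends and deposited, per library, RSEM expected counts and TPM for 31462 genes (build danRer10, Ensembl annotation). The submitters' notes name Bowtie and RSEM without versions. Expected counts were rounded, and the ribosomal RNA gene zgc:158463 was removed. Genes with a mean TMM-scaled count above 10 were tested with edgeR 4.0.16 (R 4.3.3) by quasi-likelihood, genotypes within each stage (6 libraries) and stages and interaction in a fit to all 12. P-values were adjusted by Benjamini-Hochberg over all genes tested, with a threshold of 0.05. SE came from the F statistic. Likeness was computed on deposited TPM. The members and gene lists were chosen with earlier results of these data known. Named were all members, called genes of the pathway lists (up to 4 a list), smchd1, and the 5 genes most like gdf3 and ndr1. Symbols came from gene name tables, for smad2 and others from the study's own table. Alternatives were other size factors and filters, unrounded counts, DESeq2 1.42.0, limma 3.58.1 on log2(TPM + 1) or log2(TPM + 0.1), a replicate block, joint fits, fits to 1 genotype for stage changes, and leaving out each library. The code was tested on simulated counts. Replicate numbers were not taken as pairs, and whether they pair the libraries is not known. Overlaps with other genes came from RefSeq (GRCz12tu), a different build, and strandedness of the counting is not given in the sources used here.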

Additional observations from a re-analysis of the deposited data

Results flagged for a closer look

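The change of gdf3 between stages differed between the genotypes by the interaction test, at -1.48 on the log2 scale (SE 0.14, adjusted p = 0.00241, edgeR quasi-likelihood). In wt embryos gdf3 rose from 325 to 514 CPM, with all 3 sphere libraries above all 3 early libraries, and in MZ embryos it fell from 443 to 256 CPM, with all 3 below. The wt rise depended on the scale. In TPM the wt libraries overlapped, at 438 to 551 early and 473 to 602 at sphere. On log2(TPM + 1) the wt change was 0.12 and was not called (adjusted p = 0.385, limma).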

How the results depend on the processing

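Of 1034 member values under alternative settings (53 combinations of gene and comparison), 981 kept their direction and their side of the threshold, 4 lost a call and 22 gained one in the same direction, and 27 turned direction. Of those that turned, 4 also lost a call (ACVR1B-18968 between stages on both TPM scales in each genotype), 2 gained one (ACVR1B-52142 between stages in MZ embryos on both TPM scales), 21 were called in neither, and none was a gdf3 value. DESeq2 called 1927 genes early (482 by edgeR), 2725 at sphere (1269) and 1450 in the interaction (327), and the sphere fit to all 12 libraries called 2591. The cause was not tested.

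Deviations of same-numbered wt and MZ libraries correlated at 0.0751, 0.0585 and 0.0164 early and at 0.0307, 0.0014 and 0.323 at sphere (replicates 1 to 3). The highest value of the same wt libraries with an MZ library of another number was -0.0297, 0.0361 and 0.000135 early. At sphere it was -0.00498, 0.18 and 0.00333. Not every same-numbered pair was over 0.1 and the numbers were not taken as pairs, but pairing is not excluded. With a replicate block 66 genes were called early, 1248 at sphere and 226 in the interaction, and ndr2 passed at sphere (adjusted p = 0.0413) and in the interaction (0.0467), smad2 between stages in wt (0.0448), while mixl1 (0.0759) and skilb (0.0604 at sphere, 0.0696 in the interaction) did not (edgeR quasi-likelihood).

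Leaving out 1 library gave 125 to 333 calls early, 84 to 1250 at sphere (84 and 108 without MZ replicates 2 and 3, 427 without wt replicate 1) and 26 to 806 in the interaction (26 and 33 without MZ sphere replicates 2 and 3). gdf3 passed in each of these at sphere (adjusted p up to 0.0303) and in the interaction (up to 0.0112, edgeR quasi-likelihood). smad2 early ranged from -0.0893 to 0.148, lft1 from -0.227 to 0.139 at sphere and from -0.718 to 0.912 in the interaction, smad3a from -0.313 to 0.0606 at sphere and from -0.031 to 0.418 in the interaction, and ACVR1B-52142 between stages in MZ embryos from -0.00221 to 0.118. smad2 also passed between stages in wt without MZ replicate 2 of the early stage (-0.29).

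With no scaling factor lft1 at sphere was 0.0759, ACVR1B-18968 0.0527 at sphere and 0.0199 in the interaction, and ACVR1B-52142 between stages in MZ embryos -0.0175. On log2(TPM + 1) and log2(TPM + 0.1) smad2 early was -0.043 and -0.044, lft1 at sphere 0.120 and 0.123, ACVR1B-18968 0.110 and 0.111 at sphere, -0.222 and -0.224 between stages in wt, -0.112 and -0.113 in MZ and 0.110 and 0.111 in the interaction, and ACVR1B-52142 -0.339 and -0.343 between stages in MZ. With no scaling the calls were 747 higher and 451 lower at sphere (605 and 664 with TMM), 223 and 94 in the interaction (182 and 145) and 3108 and 4992 between stages in wt (4105 and 3914). On log2(TPM + 1) the median of all genes moved by 0.13 at sphere, 0.14 in the interaction, -0.48 between stages in wt and -0.35 in MZ. Early counts of ndr2, lft1 and lft2 were low, at most 36 over a group, in libraries of 15544834 to 23681822 expected counts.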
